A study of Mus musculus with 8 samples.

Results

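Endothelial cells line blood vessels, and 10 genes that mark them were followed across RNA of cells sorted from mouse kidney rudiments: Pecam1, Cdh5, Kdr, Tek, Tie1, Flt1, Cldn5, Emcn, Esam and Sox18. They were taken by their gene name in the scanner files, from non-control probes present on both array designs used, which gave 13 probes of 60 bases for the 10 genes among 39429 probes and 27300 named genes in all. Kdr had 2 probes, Flt1 had 3 and every other gene had 1. All members were measured on all 8 arrays, although not all of them rose above background.

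The arrays carried RNA of GFP-positive cells from embryos of the NMRI strain at E11.5, of both sexes, pooled over rounds of sorting to about 100000 cells a sample. Controls were Tbx18(GFP/+), with 1 GFP allele of Tbx18 (3 pools). Nulls were Tbx18(GFP/GFP), with the GFP allele on both chromosomes (3 pools). The third group was Tbx18(cre/+);Hprt(CAG:Tbx18VP16-GFP), here called Tbx18VP16 (2 pools). In it a Cre driven from the Tbx18 locus turns on a fusion of Tbx18 with the VP16 activation domain, and GFP, from the Hprt locus. All groups thus carry at least 1 altered Tbx18 allele, and GFP reports the Tbx18 locus in controls and nulls but Cre activity in Tbx18VP16 pools. Tbx18, a T-box factor, is made in mesenchyme next to the early ureter, and the design asks what follows its loss and its activating form. The sort was made for Tbx18-expressing mesenchyme and not for vessels. In these bulk samples fewer cells of a type and less RNA per cell cannot be told apart.

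Endothelial cells are held together by junction proteins such as VE-cadherin, the product of Cdh5, and claudin-5. Their growth follows vascular endothelial growth factor (VEGF), sensed mainly by the receptor kinase Kdr (VEGFR2), while Flt1 (VEGFR1) binds the same ligand and can hold it back. Tek (Tie2) is the receptor of the angiopoietins and Tie1 its partner. ETS and SoxF factors, Sox18 among them, drive many endothelial genes, and vessels are already present around the ureteric bud when it first branches.

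Levels are given as log2 of the processed signal relative to the 75th percentile of the same array, so that 0 is that percentile and a difference of 1 is 2-fold. Levels of single genes are compared between arrays for 1 probe, never between probes. Sums over a list of genes, given further below, add the signals of different probes, so bright probes weigh most in them. Of the probes on an array, 60.1% to 66.0% had signal well above background, and 0 spots were saturated. The targeted gene followed its labels, as Tbx18 read -0.02, 1.196 and 1.04 in controls, between -2.40 and -1.34 in nulls, and at 1.34 and 1.06 in Tbx18VP16. The ureteric mesenchyme that the sort was made for was read on every array, with all 9 of its listed genes above background, and so was renal stroma, with all 7. Null replicate 3 stood apart in the endothelial genes and in several lists of other cell types, as given below, so results are stated with and without it. Control 3 and null 3 shared a slide and a scan and had 10 ng of input RNA, while the other control and null pools shared another slide and had 20 ng. The Tbx18VP16 pools had 20 ng, and were run on a slide, scan and array design of their own. Genotype cannot be told apart from these in their comparisons.

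Tie1 and Tek are related receptor kinases, and their probes lie in matching stretches of the 2 transcripts. They are shown to let the reader judge how separate the readings of this pair are, with capitals for the bases that were identical when the probes were laid over each other without gaps. The Tie1 probe lies at chr4:118144132-118144191 and the Tek probe at chr4:94540624-94540683 (mm9, minus and plus strand). Of the 57 overlapping bases, 39 were identical (68.4%).
Tie1 probe: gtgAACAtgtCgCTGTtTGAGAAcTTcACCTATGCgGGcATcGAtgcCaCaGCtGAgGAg
Tek probe: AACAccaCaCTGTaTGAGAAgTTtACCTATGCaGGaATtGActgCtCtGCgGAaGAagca
Whether either probe also binds the other transcript was not tested. Pecam1 and Emcn are shown because each rests on a single probe that was well above background on all 8 arrays. The Pecam1 probe lies at chr11:106540864-106540923 on the minus strand and the Emcn probe at chr3:137086389-137086448 on the plus strand (mm9).
Pecam1 probe: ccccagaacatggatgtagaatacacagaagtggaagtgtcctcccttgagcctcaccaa
Emcn probe: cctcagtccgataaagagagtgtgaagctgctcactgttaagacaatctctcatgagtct

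The first comparison, null against control, asks what changes in the sorted cells when Tbx18 is lost. Each of the 9 members that could be tested had a higher mean in the nulls, by 0.24 (Kdr) to 2.44 (Cldn5) on the log2 scale, and the 10th, Tek, was above background on 1 null array only. None of the 9 passed the test (limma, adjusted p = 1 for each), beside 0% of all genes tested. The height of the means came from 1 pool, since null 3 was the highest of the 8 arrays for 9 of the 10 members, Kdr being the exception. Without null 3 the median change of the 9 was 0.16, against 1.41 with it.

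Among the genes of endothelial junctions and surface, Cdh5 encodes VE-cadherin, the main cadherin of endothelial adherens junctions. Its level was -6.84, -3.99 and -5.37 in controls 1 to 3, -6.66, -4.17 and -0.62 in nulls 1 to 3, and -5.50 and -5.87 in the Tbx18VP16 pools. Null 3 alone was high, and the other 7 arrays overlapped whatever their genotype. Its 4 spots read 999.6 to 1097 units of processed signal in null 3 and 37.7 to 47.8 in control 3, so the gap is far wider than the spread of spots. Cdh5 was well above background on 2 control, 2 null and 1 Tbx18VP16 array. The difference was 0.18, -0.18 and 4.75 in replicate pairs 1 to 3, the last being 26.9-fold.

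Cldn5 encodes claudin-5, a tight junction protein of endothelium. Controls 1 to 3 had levels of -3.51, -1.72 and -2.14, nulls 1 to 3 had -1.80, -0.62 and 2.36, and Tbx18VP16 pools had -3.21 and -2.63. It was the only member that was higher in the null in every pair by the probe tested, by 1.71, 1.10 and 4.50, while 19.1% of all genes tested were higher in every pair. Nulls and controls still overlapped, because null 1 lay below control 2. The mean difference was 2.44 ± 1.03 (SE, limma, unadjusted p = 0.0489, adjusted p = 1), and adjusted p = 0.229 with the replicate pair as a block. Without null 3 the difference was 1.24 ± 0.62 (SE, adjusted p = 1).

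Esam, an adhesion molecule of endothelial tight junctions and platelets, had levels of -5.69, -4.26 and -4.93 in controls, -5.98, -4.27 and -0.78 in nulls, and -4.96 and -4.31 in Tbx18VP16. Null 3 stood far above the other 7 arrays, which overlapped between groups. The pair differences were -0.28, -0.01 and 4.16, the last 17.8-fold. On the array of control 1, where Esam was not well above background, its 4 spots had an SD of 0.91 (log2), the widest of any member among its probes tested.

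Pecam1 (CD31), an adhesion molecule of endothelium that platelets and leukocytes also carry, was read on all arrays. It stood at -3.16, -2.90 and -3.70 in controls, -2.88, -3.31 and -1.36 in nulls, and -3.69 and -3.60 in Tbx18VP16. The groups differed little outside null 3, whose pair difference of 2.34 (5.06-fold) followed 0.28 and -0.42 in the other pairs. Emcn encodes endomucin, a sialomucin of capillary and venous endothelium. It stood at -0.61, -1.17 and -1.30 in controls, -0.68, -0.72 and 0.71 in nulls, and -2.02 and -2.01 in Tbx18VP16. Here null 3 was again highest, with pair differences of -0.07, 0.45 and 2.01 (4.02-fold), and both Tbx18VP16 pools lay below all 6 other arrays.

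**Figure D1:**
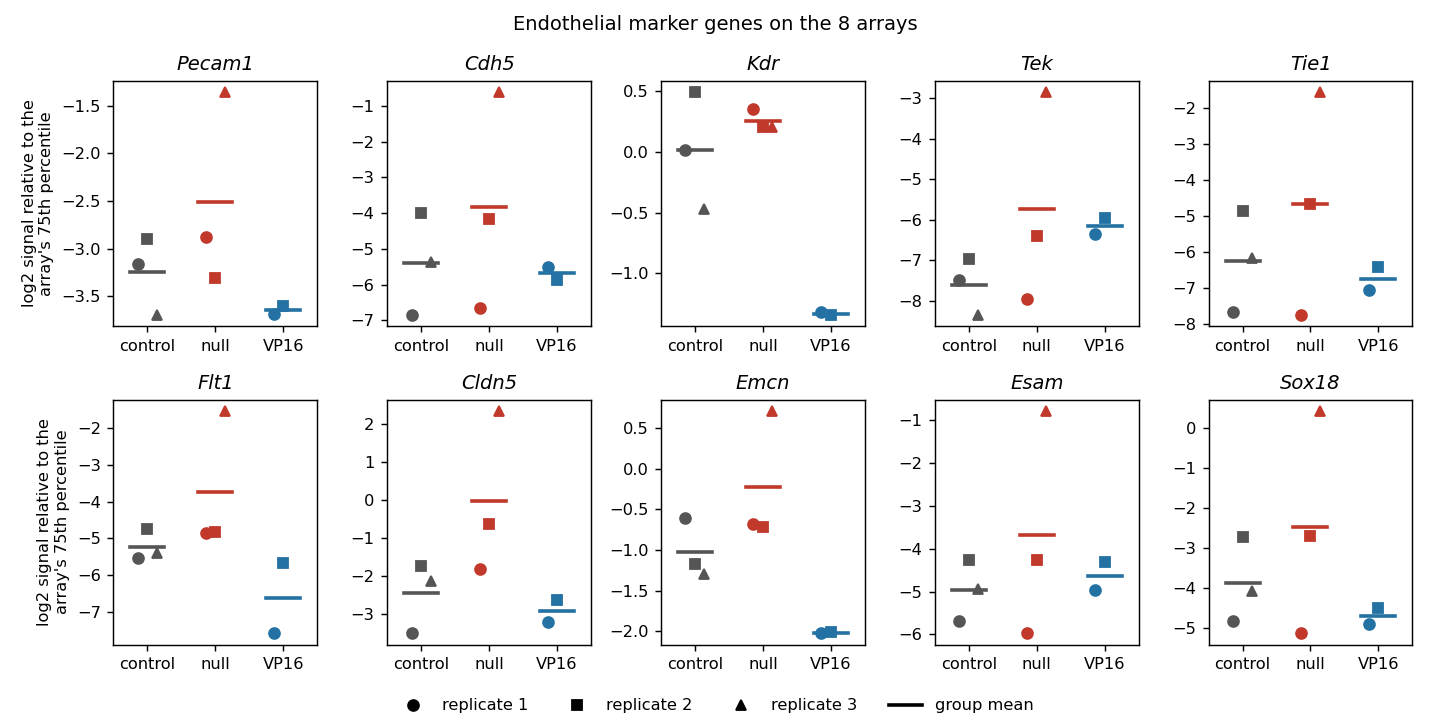
Level of each of the 10 endothelial genes on the 8 arrays (y axis, log2 signal relative to the 75th percentile of the array, a separate scale for each gene), with controls, nulls and Tbx18VP16 pools on the x axis, 1 point per pool and a bar at the group mean. The triangle of null 3 is the highest point for every gene but Kdr, which is lowest in both Tbx18VP16 pools.

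The VEGF receptors gave a mixed picture because the probes of a gene did not follow each other. Flt1 by the probe tested (chr5:148373791-148373850, minus strand, mm9) had levels of -5.53, -4.76 and -5.41 in controls, -4.87, -4.84 and -1.53 in nulls, and -7.59 and -5.68 in Tbx18VP16, where it was above background on neither array. The difference in pair 3 was 3.89 (14.8-fold), after 0.66 and -0.08 in the others. A further Flt1 probe (chr5:148446872-148446931, minus strand, mm9) gave -7.23, -6.14 and -5.80 in controls, -5.59, -5.86 and -1.86 in nulls, and -5.92 and -6.36 in Tbx18VP16. Both probes thus put null 3 far above the rest, but only the first put both Tbx18VP16 pools below all controls. The remaining Flt1 probe was above background on no array.

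Kdr was tested by its brighter probe, which starts at base 4291 of the transcript (chr5:76330395-76330454, minus strand, mm9). This probe read 0.02, 0.49 and -0.47 in controls, 0.35, 0.20 and 0.20 in nulls, and -1.32 and -1.34 in Tbx18VP16. Null 3 lay among the controls here, and the SD of the 3 nulls was 0.08. The other Kdr probe starts at base 5377, further toward the 3' end (chr5:76329309-76329368, minus strand, mm9). It read -3.30, -2.98 and -2.68 in controls, -2.72, -2.38 and 0.32 in nulls, and -3.04 and -2.80 in Tbx18VP16. By this probe null 3 was the highest array, 7.99-fold above control 3, and the Tbx18VP16 pools lay within the range of the controls. The probes also differ in composition, with 55.0% G and C in the brighter one and 35.0% in the other, and why they diverge was not tested.

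**Figure D2:**
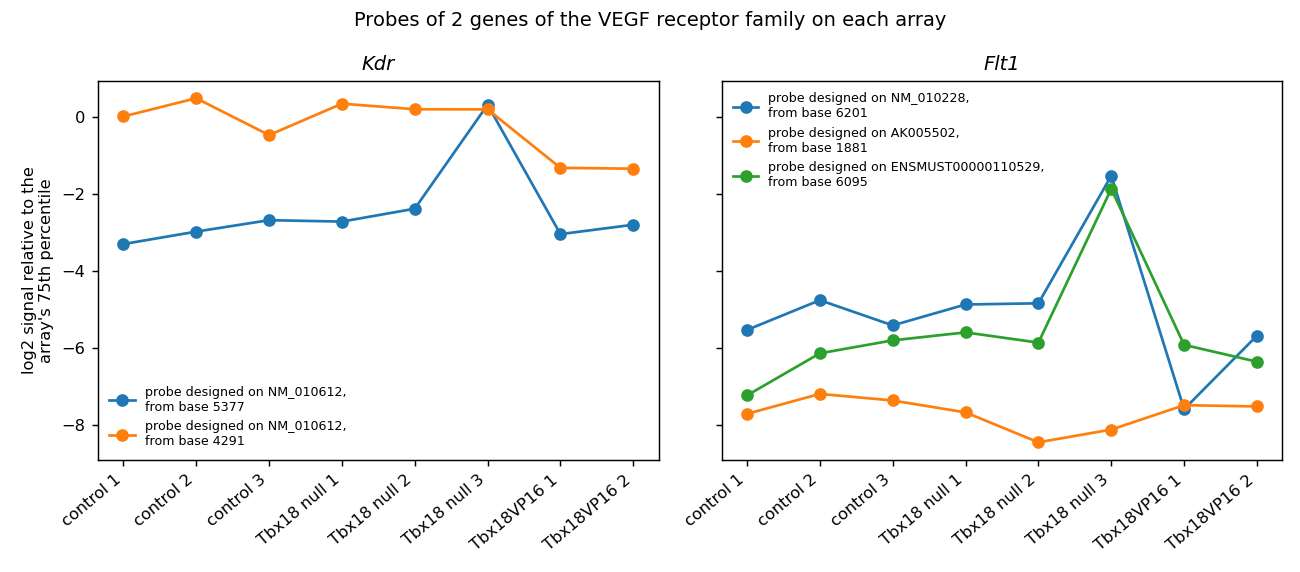
Level of each probe of Kdr (left) and Flt1 (right) on the 8 arrays (y axis, log2 signal relative to the 75th percentile of the array; x axis, arrays by group and replicate; lines join points of 1 probe and imply no order). The Kdr probe from base 4291 spans -0.47 to 0.49 over controls, is flat over nulls and is lower in both Tbx18VP16 pools. The Kdr probe from base 5377 and both measurable Flt1 probes peak in null 3.

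Tek, the angiopoietin receptor, was well above background on null 3 alone and was not tested. It read -7.48, -6.98 and -8.36 in controls, -7.96, -6.41 and -2.84 in nulls, and -6.35 and -5.95 in Tbx18VP16. Since the values other than that of null 3 are not well above background, only bounds follow: null 3 was at least 14.2-fold above control 3. The mean of the nulls, 1 of 3 of them above background, was 1.62-fold above control with nulls 1 and 2 at their dim measured signal. That value is not a strict bound. Its partner Tie1 was above background on 1 control, 2 nulls and neither Tbx18VP16 array, with -7.65, -4.86 and -6.17 in controls, -7.74, -4.65 and -1.55 in nulls, and -7.06 and -6.42 in Tbx18VP16. Null 3 and control 3 differed by 4.62, the other pairs by -0.09 and 0.22. The fold of pair 3 was thus at least 24.6, control 3 not being well above background. The values of bounds set the brighter array or group against the higher of the dim array's own signal and its lowest signal well above background. Dim arrays within the brighter group entered at their measured signal, so the value for such a group is not a strict bound.

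Sox18, a SoxF transcription factor of endothelial and lymphatic development, was the only transcription factor among the members. Controls read -4.82, -2.73 and -4.08, nulls -5.13, -2.69 and 0.42, and Tbx18VP16 pools -4.90 and -4.49, all well above background. In pairs 1 and 2 the null and its control were within 0.31 of each other, and in pair 3 they differed by 4.50 (22.6-fold). Its 4 spots read 2122 to 2204 in null 3 and 90.4 to 113 in control 3.

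Over the 9 members tested, the median difference was 0.18 in pair 1, -0.01 in pair 2 and 4.16 in pair 3, beside medians over all genes tested of 0.04, -0.002 and 0.003. In pair 3, 8 of the 9 were at least 2-fold higher in the null, against 6.46% of all genes, and 6 of 9 at least 8-fold, against 0.893%. In pairs 1 and 2 it was 1 of 9, Cldn5, against 1.63% and 2.42%. In no member did the 3 nulls all lie above the 3 controls, which 4.16% of all genes did. Of 19708 genes tested, 0 were called (0%; limma, Benjamini-Hochberg adjusted p under 0.05, smallest adjusted p = 0.0577), and 951 (4.83%) had an unadjusted p under 0.05, Cldn5 being the only member among them. With the replicate pair as a block 184 genes (0.934%) were called, again with 0 members, whose adjusted p was 0.229 (Cldn5) to 0.720 (Kdr). Leaving out null 3 turned the sign of Cdh5, Esam and Sox18, to -0.01, -0.16 and -0.03.

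**Figure D3:**
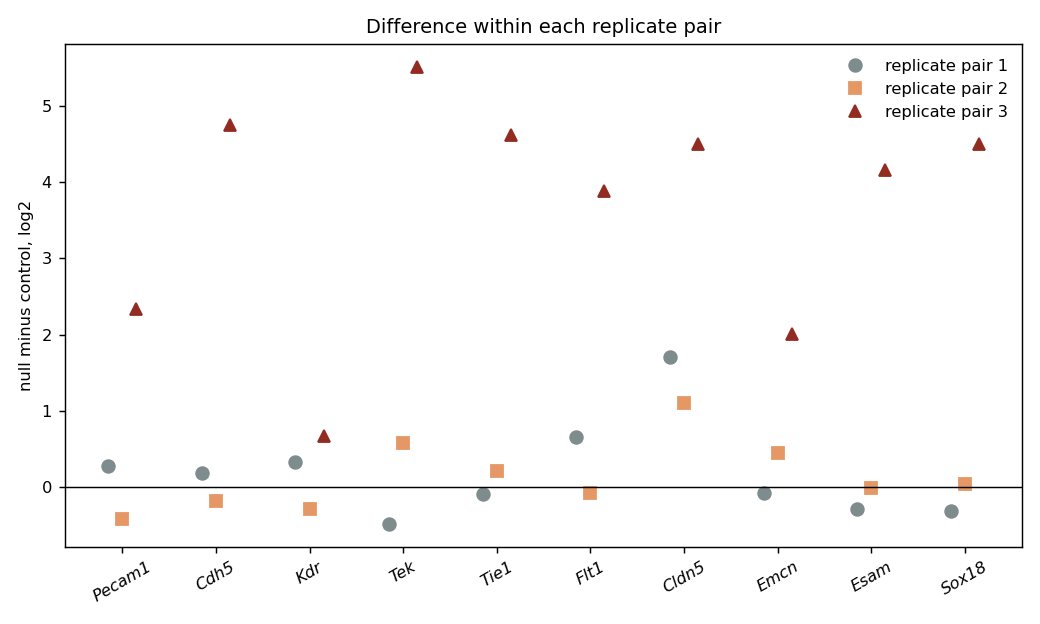
Difference between null and control within each replicate pair (y axis, log2) for the 10 genes (x axis; tested probe, or the only probe for Tek), 1 point per pair. Points of pairs 1 and 2 lie around 0 for all but Cldn5, and those of pair 3 lie between 0.67 (Kdr) and 5.51 (Tek, measured difference).

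Genes of other cell types moved in the same pool. The summed signal of the 10 members, in units of the 75th percentile, was 1.59 to 2.63 in controls, 2.42, 2.86 and 11.7 in nulls, and 0.95 and 1.05 in Tbx18VP16. A list of 14 erythroid genes, globins among them, summed to 7.45 to 31.5 in controls, 6.40, 26.6 and 554.8 in nulls, and 3.64 and 9.07 in Tbx18VP16. The embryonic globin Hbb-bh1 read 0.50, 0.08 and 0.98 in controls and -0.01, 1.75 and 6.35 in nulls. For 17 genes of ureteric epithelium the sums were 2.95 to 4.67 in controls, 3.68, 7.67 and 18.0 in nulls, and 4.57 and 5.29 in Tbx18VP16. Epcam, an adhesion molecule of epithelia, read -3.90, -2.41 and -2.37 in controls and -3.71, -0.95 and 0.45 in nulls. Null 3 was thus high for blood and epithelial genes as well as for endothelial ones, and null 2 was above the controls for epithelial genes while its endothelial sum was near that of control 2.

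Of the erythroid genes 12 of 14 had their highest level in null 3, and of the ureteric epithelium genes 15 of 17. Leukocyte and platelet genes did so less uniformly, with 5 of 12 and 1 of 10. The share of all genes with their highest level in null 3 was not counted. In pair 3, 10 of 12 tested erythroid genes and 15 of 17 epithelial genes were at least 2-fold higher in the null. For leukocyte and platelet genes it was 3 of 8 and 3 of 6 tested, beside 6.46% of all genes. The sum of 12 macrophage and leukocyte genes came to 1.67 to 1.99 in controls, 2.48, 2.05 and 3.52 in nulls, and 1.90 and 2.81 in Tbx18VP16. The pan-leukocyte gene Ptprc (CD45) was well above background on 1 null array and on no other. For 10 genes of megakaryocytes and platelets the sum came to 0.35 to 0.39 in controls, 0.39, 0.71 and 2.32 in nulls, and 4.93 and 9.51 in Tbx18VP16. It was highest on the arrays where the endothelial sum, in which bright probes weigh most, was lowest. The median level of the 10 endothelial genes was not lowest there. It was -4.9299 and -4.3993 in Tbx18VP16, within the range of controls 1 to 3 (-5.175, -3.4439 and -4.5049). Renal stroma summed to 191.5 to 235.7 in controls, 214.2, 171.7 and 154.7 in nulls, and 174.7 and 200.5 in Tbx18VP16, lowest in null 3. The part of blood cells, epithelium, the smaller RNA input or the second slide in the endothelial values of null 3 was not tested.

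**Figure D4:**
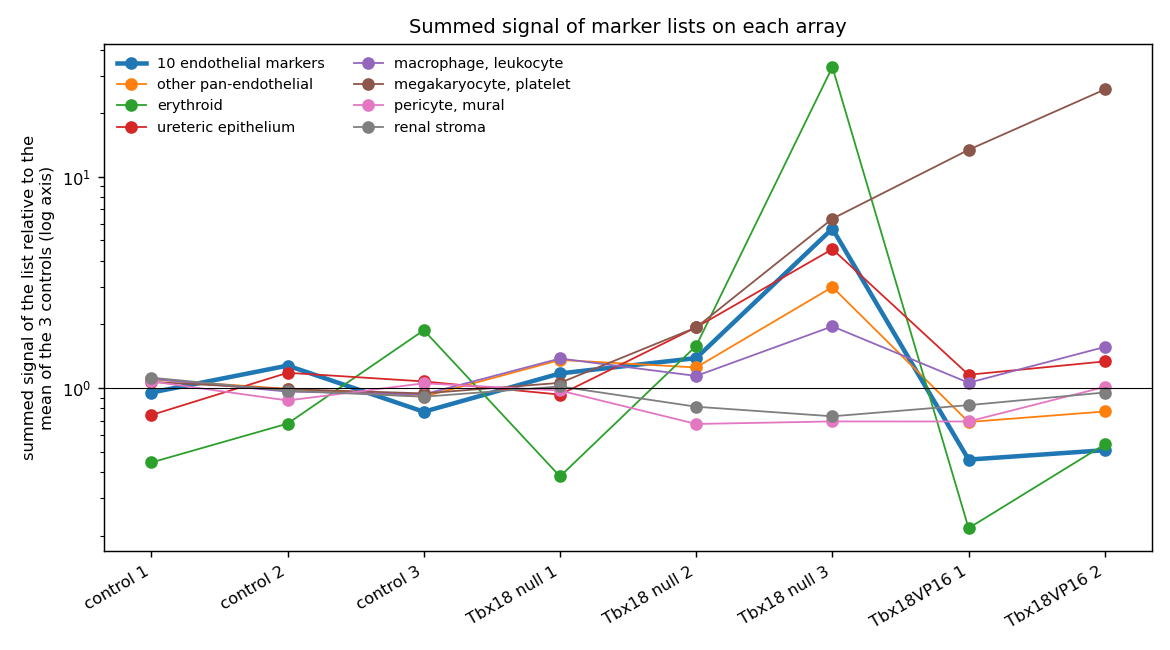
Summed signal of the 10 endothelial genes and of 7 other marker lists on each array (x axis), divided by the mean of the 3 controls (y axis, log scale; lines join the points of a list and imply no order). Endothelial, erythroid and ureteric epithelium lists have their highest point in null 3, platelet genes in the Tbx18VP16 pools, and renal stroma its lowest in null 3.

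Other genes of endothelium behaved like the members. Of 24 further pan-endothelial genes, 23 had a higher mean in the nulls, 0 passed the test (limma, 5 at an unadjusted p under 0.05), and the medians were 0.23, -0.06 and 2.56 in pairs 1 to 3. In pair 3, 21 of 24 were at least 2-fold higher. The 4 of smallest p were Rasip1, a regulator of vessel lumen formation (1.40 ± 0.42, SE, limma adjusted p = 0.579), Ramp2, a co-receptor for adrenomedullin (0.91 ± 0.28, adjusted p = 0.627), Cd34, a sialomucin of vessels and blood progenitors (0.80 ± 0.30, adjusted p = 0.905), and Plvap, of endothelial diaphragms (1.11 ± 0.45, adjusted p = 0.992). Ramp2 read 1.48, 1.63 and 1.42 in controls and 2.03, 2.35 and 2.89 in nulls, so the 2 groups did not overlap. Nulls lay above controls without overlap in 4.16% of all genes tested.

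Of 19 transcription factors of endothelium, 18 were tested and 11 had a higher mean in the nulls, with a median of 0.63 in pair 3. Lmo2, a partner of Tal1 in blood and vessel development, read -3.40, -3.25 and -4.82 in controls and -2.62, -2.21 and 0.28 in nulls, without overlap. Its change was 2.31 ± 0.80 (SE, limma adjusted p = 0.758). Etv2, the ETS factor at the top of endothelial specification, read -3.96, -5.30 and -5.16 in controls and -2.87, -3.26 and -3.46 in nulls. It too was without overlap (1.61 ± 0.40, adjusted p = 0.386), a pattern that 4.16% of all genes tested showed. Sox17, a SoxF relative of Sox18, was by its brightest probe above background in no control and 2 of 3 nulls. By that probe, not tested in this comparison, it was 3.18-fold higher in the nulls by the rule for bounds, with dim null 1 at its measured signal. The Sox17 probe that was tested here is another one, with a change of 2.39 ± 1.17 (SE, limma adjusted p = 1). Sox7, the other relative, had a change of 2.05 ± 1.59 (SE, limma adjusted p = 1), above background in 1 control and 2 nulls. Erg, an ETS factor of mature endothelium, was above background on no array.

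The list of vessel ligands and further receptors was mixed. Of 21 VEGF, angiopoietin and apelin ligands and other receptors, 18 were tested, 10 had a higher and 8 a lower mean in the nulls, and 0 passed (limma, 5 at an unadjusted p under 0.05). The median in pair 3 was 0.20, and 4 of 18 were at least 2-fold higher there, all of them receptors: Aplnr, the apelin receptor (4.72), Cxcr4, the chemokine receptor (2.90), Plxnd1, a semaphorin receptor (2.62), and Eng, a co-receptor of the TGF-beta family (2.45). Aplnr was also on the list of arterial, venous and lymphatic genes, and Eng on that of pan-endothelial genes. Vegfa, the main ligand of Kdr, read 1.31 to 1.54 in controls and 1.46 to 1.70 in nulls, a change of 0.19 ± 0.22 (SE, limma adjusted p = 1). Vegfd, a ligand of the lymphatic receptor Flt4, read -2.32, -2.50 and -1.05 in controls and -4.31, -3.92 and -3.19 in nulls, lower in every pair. Its change was -1.85 ± 0.47 (SE, adjusted p = 0.398) and it passed only with the replicate pair as a block (adjusted p = 0.0397). Sema3e, a repellent of vessels, had a change of 0.96 ± 0.24 by the fit (adjusted p = 0.386) but was above background in no control, so that the nulls were at least 1.93-fold higher. The chemokine Cxcl12 had one of -0.98 ± 0.25 (adjusted p = 0.412), and Angpt2, the angiopoietin that opposes Angpt1 at Tek, one of -0.80 ± 0.30 (adjusted p = 0.868).

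Among 17 tested genes of arterial, venous and lymphatic identity, 11 had a higher and 6 a lower mean in the nulls, and 0 passed (limma, 2 at an unadjusted p under 0.05). Their median was 0.49 in pair 3, where 7 of 17 were at least 2-fold higher. The lowest p was that of Hey2, a Notch target of arteries (-1.30 ± 0.26, SE, limma adjusted p = 0.218). Of 10 tested genes of pericytes and mural cells, the cells that wrap vessels, 3 had a higher and 7 a lower mean, with 0 passing (limma, 1 at an unadjusted p under 0.05) and medians of -0.17 and -0.20 in pairs 2 and 3. In pair 3, 1 of these 10 was at least 2-fold higher, beside 8 of 9 members.

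In the second comparison, Tbx18VP16 against control, 8 of the 9 tested members had a lower mean and Esam a higher one, and the median was -0.51 beside -0.14 over all genes tested. That shift of all genes was -0.02 with quantile normalisation and -0.23 with another background correction. Only Kdr fell, by 1.34 ± 0.30 on the log2 scale (SE, limma adjusted p = 0.0414), to 0.394 of the control level. That is 1 of 9 members, beside 5.34% of the 20597 genes tested (3.3% called lower). By its other probe Kdr changed by 0.07 ± 0.79 (adjusted p = 0.971), and without null 3, which shares in the estimate of the spread, the first probe had adjusted p = 0.0593. The call was also lost without control 1 (adjusted p = 0.0793), control 2 (0.0979) or either Tbx18VP16 pool (0.254 and 0.318).

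Of the 9 members, 3 (Kdr, Flt1 and Emcn) had both Tbx18VP16 pools below all 3 controls, a pattern that 30.3% of all genes showed. Emcn had a change of -0.99 ± 0.45 (SE, limma adjusted p = 0.237) and Flt1, not above background in Tbx18VP16, one of -1.40 ± 1.01 by the fit (adjusted p = 0.449), its control mean being at least 1.71-fold higher. For Pecam1, Cdh5, Tie1, Cldn5, Esam and Sox18 the changes were -0.82 to 0.33 with adjusted p of 0.702 to 0.931. Their standard errors were 0.54 to 1.56 on the same scale. Tie1, above background in 1 control and no Tbx18VP16 pool, was 1.05-fold higher in control by the rule for bounds, with dim controls at their measured signal.

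Tbx18VP16 against null, the third comparison, had all 9 members lower, by 0.96 (Esam) to 2.90 (Cldn5), with a median of -1.87 beside -0.15 over all genes. Kdr again was the only one that passed (-1.58 ± 0.30, SE, limma adjusted p = 0.0329), 1 of 9 beside 3.67% of genes called (2.5% lower), and by its other probe it did not (-1.33, adjusted p = 0.360). Emcn had a change of -1.79 ± 0.45 (adjusted p = 0.0699), Flt1 one of -2.89 ± 1.01 (adjusted p = 0.151) and Cldn5 one of -2.90 ± 1.09 (adjusted p = 0.173). For Flt1, above background in no Tbx18VP16 pool, the null mean was at least 4.79-fold higher. For Tie1, above background in 2 of 3 nulls, it was 3.15-fold higher by the same rule, with dim null 1 at its measured signal. Both Tbx18VP16 pools lay below all 3 nulls for 5 of 9 members (Kdr, Pecam1, Flt1, Cldn5 and Emcn), which 31.9% of all genes did. Without null 3 the median was -0.79, Esam was 0.49 higher in Tbx18VP16, and Kdr had adjusted p = 0.0630. The call of Kdr was also lost without null 1 (adjusted p = 0.0550), null 2 (0.0929) or either Tbx18VP16 pool (0.240 and 0.299). The comparisons with control share the 3 control pools, and the null pools enter the first and the third, so the values of the 3 comparisons are not independent.

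**Figure D5:**
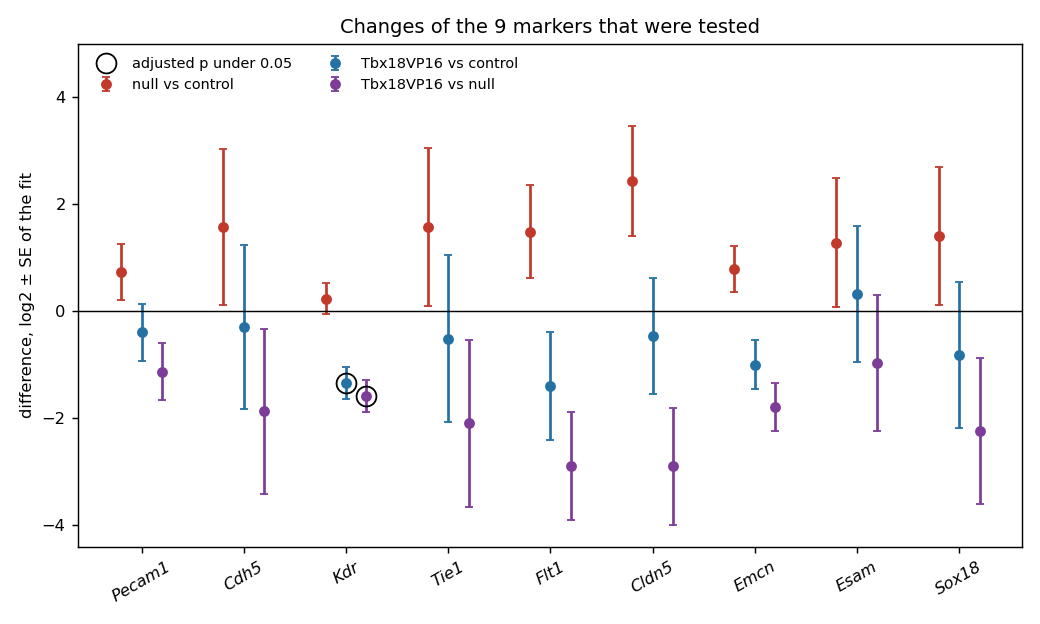
Difference of each tested member (x axis) in the 3 comparisons (y axis, log2, point with SE of the limma fit), with a ring where the adjusted p was under 0.05. Only Kdr has rings, for both comparisons of Tbx18VP16, by the probe from base 4291.

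Of the 24 other pan-endothelial genes, 15 had a lower and 9 a higher mean in Tbx18VP16 than in control, with a median of -0.54. Cd34 fell, from 0.56, 0.56 and 0.30 in controls to -1.44 and -1.29 (-1.84 ± 0.31, SE, limma adjusted p = 0.0173), and was the only one of them that passed. Against null, 22 of 24 had a lower mean, and Cd34 (-2.63 ± 0.31, adjusted p = 0.00834) and Ramp2 (-1.45 ± 0.29, adjusted p = 0.0411) fell. Of the endothelial transcription factors, Foxo1, a forkhead factor with wide expression, rose against control (1.61 ± 0.23, adjusted p = 0.0107) and null (1.44 ± 0.23, adjusted p = 0.0218), from -0.29 to 0.26 in controls and nulls to 1.52 and 1.40. Mef2c rose against null (2.33 ± 0.48, adjusted p = 0.0442) and had a change of 1.89 ± 0.48 against control (adjusted p = 0.0652). The called genes of these lists thus went both ways, with 2 lower and 2 higher over both comparisons. Of all genes tested, 5.34% were called against control and 3.67% against null.

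Of the ligands, Vegfc and Vegfd, both of which act on Flt4, fell in Tbx18VP16 against control (-1.71 ± 0.31, SE, limma adjusted p = 0.0206, and -2.26 ± 0.49, adjusted p = 0.0400). Vegfc read 2.84, 2.12 and 2.25 in controls, 1.997, 1.44 and 1.43 in nulls, and 0.59 and 0.79 in Tbx18VP16, with no overlap between the groups. In 30.3% of all genes both Tbx18VP16 pools lay below all controls. Sema3e rose, to at least 4.78-fold over controls (adjusted p = 0.00306), and against null by 1.31 ± 0.24 (adjusted p = 0.0290). Vegfa had a change of 0.12 ± 0.23 (adjusted p = 0.787). No arterial, venous, lymphatic or pericyte gene passed in either comparison (limma, 0 of 17 and 0 of 10, with 4 and 2 at an unadjusted p under 0.05 in each comparison).

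Platelet genes rose in the pools where no member did. Of 10 megakaryocyte and platelet genes, 8 rose in Tbx18VP16 against control (Pf4, Ppbp, Gp9, Treml1, Gp6, Itga2b, Gp1bb and Itgb3). A further 1 was called lower. Pf4, a platelet chemokine, read -7.12, -4.74 and -5.24 in controls, -6.26, -1.59 and 0.42 in nulls, and 1.83 and 2.78 in Tbx18VP16. Itga2b, the platelet integrin subunit, rose by 2.55 ± 0.50 (SE, limma adjusted p = 0.0281). Of the leukocyte genes, 1 of 11 tested rose, Lyz2 (1.92-fold by the rule for bounds, limma adjusted p = 0.0448, above background in 1 of 2 pools). Beside these counts, 5.34% of all genes tested were called in either direction and 3.3% were called lower. Pecam1 and Esam, which platelets also carry, were at -3.69 and -3.60 and at -4.96 and -4.31 on these arrays, within or near the range of the controls.

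The 9 tested members varied together over the 8 arrays, largely through null 3. Correlation of each with the mean of the other 8 is given as a description over 8 arrays that share slides and groups. It was 0.98 for Sox18, 0.96 for Cldn5, 0.95 for Tie1, 0.94 for Cdh5, 0.90 for Flt1 and Esam, 0.87 for Pecam1, 0.78 for Emcn and 0.45 for Kdr. Over the 7 arrays without null 3 it stayed highest for Sox18 (0.93), Tie1 (0.83) and Cldn5 (0.81), and was 0.50 for Esam, 0.35 for Pecam1 and 0.32 for Emcn. The mean centred level of the 9 members was -0.92, 0.41 and -0.44 in controls 1 to 3 and -0.65, 0.50 and 3.05 in nulls 1 to 3, so pools of number 1 were low and those of number 2 higher in both genotypes. In Tbx18VP16 it was -1.19 and -0.75.

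Genes most like the mean of the members were sought among the other genes tested on the 8 arrays. Names that were clone-like, predicted or not in RefSeq were left out. The 10 highest included Icam2 (r = 0.98), Rsad2, Gimap6, Cd93, Tmem204, Tmprss2, Vsnl1 and Calb1 (0.97 for the last). Icam2, an adhesion molecule of endothelium and leukocytes, read 0.62 in null 3 and -4.74 to -2.94 on the other 7 arrays, and Cd93, of endothelium and myeloid cells, 1.02 and -4.62 to -3.01. Calb1, on the list of ureteric epithelium genes, also had its highest level in null 3. Icam2, Gimap6 and Cd93 were well above background on all 8 arrays. Tmem204 and Calb1 were so on 4, Tmprss2 on 3, and Rsad2 and Vsnl1 on 2, so their correlations rest partly on dim signal. Without null 3 the correlations of the 10 were 0.84 to 0.96, highest for Tmprss2, and without the 2 arrays farthest from the median, null 3 and null 2, they were 0.71 to 0.95. These 10 are the highest among the 20597 genes tested once such names are left out, and carry no test.

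Promoters of the members are described where the RefSeq table (GRCm38.p6) held one, from 250 bases before to 50 after the start. It did so for Cldn5, Emcn, Flt1, Kdr, Tek and Tie1 (6 of 10). The letters AGGAAG, a core that ETS factors bind, were searched on both strands and found in 3 of 6 (Emcn, Flt1 and Tie1), beside 35.4% of 32851 promoters of that length. CGGAAG, another ETS core, was found in 1 (Tie1; 16.9% of all), GATAAG, which GATA-binding factors use, in 1 (Tek; 7.44%), and TATAAA in 1 (Flt1; 13.6%). AGGTGT, a core that T-box factors such as Tbx18 bind, was found in 0 of 6, beside 13.7% of all. A promoter can hold several of these motifs. The 120 bases before the start are shown for Flt1 and Emcn, which hold an ETS core there, with the ETS core and TATAAA in capitals, at chr5:147726012-147726131 (minus strand) and chr3:137340958-137341077 (plus strand).
Flt1 promoter: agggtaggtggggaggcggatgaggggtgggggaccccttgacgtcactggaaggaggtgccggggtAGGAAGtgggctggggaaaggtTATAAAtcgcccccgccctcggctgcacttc
Emcn promoter: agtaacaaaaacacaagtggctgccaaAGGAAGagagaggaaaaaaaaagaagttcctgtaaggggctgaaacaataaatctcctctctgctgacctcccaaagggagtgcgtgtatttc
The marked ETS core starts 53 bases before the start of Flt1 and 93 before that of Emcn. A match of letters is a description and says nothing of binding here.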

How the data were processed

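The deposited spot intensity values came from Agilent Feature Extraction 10.7.3.1, per the file headers, with background already subtracted. The authors' deposited value table, normalised intensity on a linear scale (median 93.8, floor of 10), served as an alternative. Outlier spots were dropped (1.86% to 3.14%), the 4 spots of a probe averaged, and log2 taken relative to each array's 75th percentile (976 to 2129 units). A probe counted as well above background where at least 50% of its spots did. Each gene, by its brightest probe, needed this on 3 of the 6 arrays of null and control, or on 2 of all 8. Names came from RefSeq tables of GRCm38.p6 (27597 probes by accession, 3488 by symbol, 393 by synonym, 5112 by the file, 2839 unnamed), probe coordinates from the files (mm9).

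The null comparison used limma 3.58.1 (lmFit, eBayes; R 4.3.3) on 6 arrays, and Tbx18VP16 was set against both groups in 1 fit on all 8. Adjusted p values are Benjamini-Hochberg over all genes, threshold 0.05, two-sided. Code was tested on simulated data. Members and lists were chosen with earlier results of these data known. From the lists, genes that passed and up to 4 of smallest p are named, a few of which are left unreported. Vegfa, Sox17, Sox7, Erg, Hbb-bh1, Epcam, Ptprc, Aplnr, Cxcr4, Plxnd1 and Eng were named after their values were seen. Replicate numbers paired control and null pools, since deviations from group means correlated at 0.827, 0.707 and 0.429 for equal numbers (-0.753 to 0.321 otherwise). Nothing says that pools came from separate litters, so p values measure only the spread between pools, whose number limits the precision.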

Additional observations from a re-analysis of the deposited data

How the results depend on the processing

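Adjusted p values are limma's. For null against control, 0 members passed under any of the 20 alternatives. With pools left out, the median change ranged from 0.02 (without replicate 3) to 2.44 (without null 1), Pecam1 from -0.067 to 1.31, Cdh5 from -0.014 to 3.01, Esam from -0.16 to 2.44, Sox18 from -0.13 to 2.74 and Kdr from -0.0021 to 0.50. The lowest of these came without null 3 or pair 3, or, for Kdr, without control 3. On the first slide alone Pecam1, Esam and Sox18 were -0.067, -0.15 and -0.13.

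For Tbx18VP16 against control the count of 1, Kdr, became 0 without a filter on dim probes (adjusted p = 0.0530), with the mean of a gene's probes (0.412), with only the 2 groups compared (0.0610) and, as alternatives chosen after seeing the data, without null 3 and by the other Kdr probe (change 0.065). With pools left out it ranged from 0 to 1, Cdh5 from -1.01 to 0.42, Tie1 from -1.22 to 0.17 and Esam from -0.037 to 0.68. Esam was -0.15 with normexp background. With the replicate block Cdh5, Tie1 and Cldn5 were 0.52, 0.28 and 0.21, and 3644 genes were called against 1100 (3294 against 756 for null); no call of a member changed, and Tbx18VP16 pools share only a number with the others.

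For Tbx18VP16 against null the count of 1 became 0 with the mean of a gene's probes (adjusted p = 0.105), by the other Kdr probe, and with any 1 null or Tbx18VP16 pool left out. The median then ranged from -3.29 to -0.79 and Esam from -2.11 to 0.49. The causes were not tested. Tek and Tie1 were near background on most arrays and Flt1 in Tbx18VP16, which limits them to bounds there.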
